A study of Homo sapiens with 6 samples.

Results

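PC-3 cells, a prostate cancer line grown from a bone metastasis, were examined for 9 enzymes that make serine or carry its carbon on folate. PHGDH, PSAT1 and PSPH form the serine synthesis pathway, SHMT1 and SHMT2 split serine into glycine and a folate-bound carbon, and MTHFD1, MTHFD2, MTHFD1L and ALDH1L2 move that carbon between its folate forms. The genes were taken by name, with earlier results of these data known, and all 9 were among the 19491 genes listed in each of 2 tables. All were read in 3 groups of the same line after 48 h: untreated control cells, cells given 1 mM GPNA and cells given 10 mM BenSer, all kept in RPMI medium with fetal bovine serum and sodium pyruvate. GPNA is a glutamine analogue and BenSer a benzyl derivative of serine, and both were used as inhibitors of ASCT2, a transporter that brings glutamine and serine into cells. As 1 cancer cell line, the material cannot stand for prostate tissue, and in bulk RNA fewer cells expressing a gene and less RNA per cell cannot be told apart.

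Serine is built from the glycolytic intermediate 3-phosphoglycerate. PHGDH oxidises it, PSAT1 adds nitrogen taken from glutamate, and PSPH removes the phosphate. The hydroxymethyl carbon of serine then enters the folate cycle, which runs in parallel in mitochondria (SHMT2, MTHFD2, MTHFD1L, ALDH1L2) and in the cytosol (SHMT1, MTHFD1), and which supplies carbon for purines, thymidylate and methionine. ATF4, the transcription factor of the amino acid response, is a known activator of several of these genes.

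Each group had 2 labelled libraries of 23077986 to 32178154 reads. Within a group the libraries agreed nearly to sampling noise (chi-square divided by its degrees of freedom 1.05 to 1.06, against 5.50 to 20.7 for libraries of different groups), so each group was counted as 1 sample. No p-value for a treatment is therefore given, and the 95% intervals cover counting error only. A gene was called higher or lower where its mean CPM (reads scaled to a common library size, as deposited), after adding 1, differed more than 1.5-fold. Of the cell markers, all 5 of the PC-3 epithelial list were present, from VIM at 142 to 188 CPM to KRT19 at 667 to 781 CPM, and of the androgen-responsive luminal list KLK3 was not listed. None of the 4 leukocyte or 3 endothelial markers was listed, and of the 4 fibroblast markers COL1A1 alone was, at 3.65 to 6.07 CPM.

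Promoter sequence was looked up for the members because ATF4 is known to act on several of them through promoter elements. RefSeq (GRCh38.p14) held a promoter for 6 of the 9 genes. The 250 bases before the start are shown for PHGDH (chr1:119711684-119711933, forward strand) and PSAT1 (chr9:78296875-78297124, forward), the genes past 1.5-fold, for MTHFD1 (chr14:64388103-64388352, forward), a cytosolic enzyme that was lower under both compounds, and for MTHFD1L (chr6:150866236-150866485, forward, the first of 4 starts), where the ATF4-type motif occurs. Capitals mark matches on either strand to TGATGNAA (the C/EBP-ATF response element), CCAAT (the CCAAT box) and CACGTG (an E-box), and no matches overlapped.
PHGDH: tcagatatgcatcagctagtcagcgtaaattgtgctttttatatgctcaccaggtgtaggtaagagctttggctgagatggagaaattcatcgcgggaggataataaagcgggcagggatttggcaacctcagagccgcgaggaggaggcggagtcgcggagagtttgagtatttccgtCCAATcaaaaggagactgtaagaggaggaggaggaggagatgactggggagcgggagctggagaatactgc
PSAT1: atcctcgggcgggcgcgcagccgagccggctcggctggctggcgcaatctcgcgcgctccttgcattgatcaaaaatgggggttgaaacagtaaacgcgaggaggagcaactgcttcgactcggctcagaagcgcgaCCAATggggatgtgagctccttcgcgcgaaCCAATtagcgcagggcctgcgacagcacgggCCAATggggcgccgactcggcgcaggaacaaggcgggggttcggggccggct
MTHFD1: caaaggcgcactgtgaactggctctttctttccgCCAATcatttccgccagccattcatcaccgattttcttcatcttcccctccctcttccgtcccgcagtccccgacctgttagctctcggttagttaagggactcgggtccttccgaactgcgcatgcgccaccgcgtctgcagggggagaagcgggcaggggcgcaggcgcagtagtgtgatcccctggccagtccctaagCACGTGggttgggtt
MTHFD1L: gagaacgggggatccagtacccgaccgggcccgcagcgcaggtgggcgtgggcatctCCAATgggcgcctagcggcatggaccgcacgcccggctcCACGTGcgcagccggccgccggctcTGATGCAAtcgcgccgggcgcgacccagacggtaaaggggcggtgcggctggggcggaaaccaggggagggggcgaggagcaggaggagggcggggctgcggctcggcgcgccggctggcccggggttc

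The CCAAT box was found before the start of 6 of 6 members with a sequence, and of 37.0% of all 27305 genes in the table. PSAT1 held 3 copies, whose first bases lay 113, 83 and 52 bases before the start. PHGDH held 1 copy, 71 bases before its start. TGATGNAA was found in 1 of 6 members, MTHFD1L, 129 bases before the first of its starts, and in 3.89% of all genes. The E-box was found in MTHFD1, 15 bases before the start, and in MTHFD1L, 154 bases before its first start, against 7.73% of all genes. Of the 4 starts of MTHFD1L, starts 1 and 3 held both motifs, in windows that overlap, and starts 2 and 4 held neither. A match describes letters in this window and not binding, and the windows of PHGDH and PSAT1 held no TGATGNAA or CACGTG.

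Of the serine synthesis genes PHGDH and PSAT1 rose with BenSer, and the size of the difference followed the order of the steps they catalyse. PHGDH (ENSG00000092621, GRCh37 chr1:120191034-120286841, forward strand), which catalyses the first and committed step, had 57.0 and 55.5 CPM in the control libraries, 75.2 and 76.5 CPM with GPNA, and 109 and 111 CPM with BenSer. The 3 groups did not overlap. PHGDH was 1.96-fold the control level with BenSer (interval 1.87 to 2.05), and it was called higher. With GPNA it was 1.35-fold the control level (1.28 to 1.42), short of the 1.5-fold call. Ranked by log2 difference, PHGDH stood 99th from the highest of 18976 genes with BenSer and 206th of 18828 with GPNA.

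PSAT1 (ENSG00000135069, GRCh37 chr9:80912041-80945009, forward strand), the aminotransferase of the middle step, had 22.0 CPM in both control libraries. It had 28.8 and 27.7 CPM with GPNA and 36.5 CPM in both BenSer libraries, again with no overlap between groups. PSAT1 rose 1.66-fold with BenSer (interval 1.54 to 1.79). The GPNA level was 1.28-fold that of the control (1.18 to 1.39), which was not called. The annotation names 4 processed pseudogenes of PSAT1, none of them listed in the tables, so reads shared with them could not be followed.

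PSPH (ENSG00000146733, GRCh37 chr7:56078744-56119297, reverse strand), the phosphatase of the last step, differed least of the serine synthesis genes. Its libraries stood at 21.4 and 19.8 CPM untreated, 22.8 and 22.4 CPM with GPNA, and 26.9 and 25.3 CPM with BenSer. These values did not overlap between groups, but no difference passed 1.5-fold. The ratio to control was 1.27 with BenSer (interval 1.17 to 1.37) and 1.10 with GPNA (1.01 to 1.20). Its log2 difference (CPM + 1) for GPNA was 0.13, and 0.073 without control replicate 2.

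**Figure D1:**
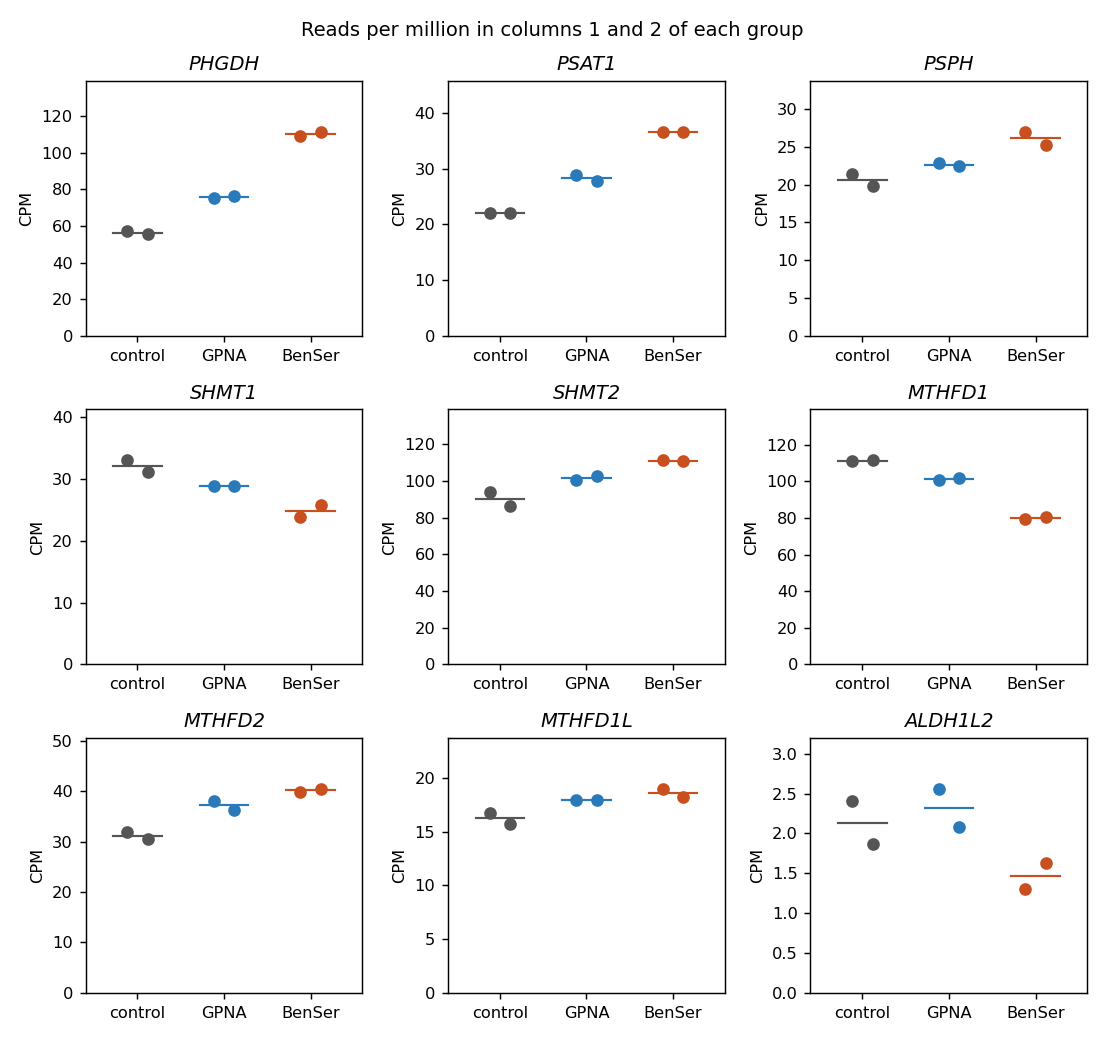
Scaled reads (CPM, vertical axis from 0, scaled per gene) of the 9 enzymes in the 2 libraries of each group, 1 point per library with a line at their mean. PHGDH climbs from 55.5 to 57.0 CPM in the control to 109 to 111 CPM with BenSer, while MTHFD1 goes from 111 CPM in both control libraries to 79.4 to 80.7 CPM.

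The serine hydroxymethyltransferases lay on opposite sides of the control. SHMT2 (ENSG00000182199, GRCh37 chr12:57623356-57628718, forward strand), the mitochondrial form, had 93.9 and 86.4 CPM untreated, 101 and 102 CPM with GPNA, and 111 CPM in both BenSer libraries. SHMT1 (ENSG00000176974, GRCh37 chr17:18231174-18266877, reverse strand), the cytosolic form, had 33.0 and 31.2 CPM untreated, 28.9 and 28.8 CPM with GPNA, and 23.9 and 25.8 CPM with BenSer. Neither gene's groups overlapped, and neither gene passed 1.5-fold. SHMT2 was 1.23-fold the control level with BenSer (interval 1.18 to 1.28) and 1.13-fold with GPNA (1.08 to 1.17). SHMT1 was at 0.775 times the control level with BenSer (0.721 to 0.832) and at 0.901 times with GPNA (0.837 to 0.968).

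The control libraries of SHMT2 differed from each other beyond counting error, the only such pair among the 27 combinations of member and group. Its log2 difference (CPM + 1) for GPNA was 0.17, and 0.11 without control replicate 2. Within a library, SHMT2 had 2.81 reads per SHMT1 read in untreated cells (interval 2.65 to 2.98), 3.52 under GPNA (3.32 to 3.73) and 4.47 under BenSer (4.23 to 4.72). This ratio does not depend on how libraries are scaled, and its intervals did not overlap between groups.

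MTHFD1 lay below the control and MTHFD2 and MTHFD1L above it under both compounds. MTHFD1 (ENSG00000100714, GRCh37 chr14:64854749-64930175, forward strand), the cytosolic enzyme that joins formate to folate and interconverts the products, had 111 CPM in both control libraries. It stood at 101 and 102 CPM with GPNA and at 79.4 and 80.7 CPM with BenSer. With BenSer MTHFD1 was at 0.720 times the control level (interval 0.692 to 0.748), on a log2 difference (CPM + 1) of -0.47 that did not reach the 1.5-fold call. It ranked 713th from the lowest of 18976 genes there. With GPNA it was at 0.911 times the control level (0.876 to 0.947). The merged reads hardly differed between groups, 5152 untreated, 5194 under GPNA and 5134 under BenSer, while the library totals rose in that order. CPM takes these totals into account. The log2 difference of MTHFD1 with BenSer ran from -0.48 to -0.42 over 14 alternatives of processing.

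MTHFD2 (ENSG00000065911, GRCh37 chr2:74413299-74444692, forward strand) is the mitochondrial dehydrogenase and cyclohydrolase that is low in most adult tissues and high in many tumours. Its libraries had 31.9 and 30.5 CPM untreated, 38.1 and 36.3 CPM with GPNA, and 39.9 and 40.4 CPM with BenSer, without overlap. It was 1.29-fold the control level with BenSer (interval 1.21 to 1.38) and 1.19-fold with GPNA (1.11 to 1.28). MTHFD1L (ENSG00000120254, GRCh37 chr6:151186815-151423023, forward strand), which releases formate from the mitochondrial folate, had 16.7 and 15.7 CPM in the control. It had 17.9 and 18.0 CPM with GPNA and 19.0 and 18.2 CPM with BenSer. Both treated groups lay above the control, by 1.14-fold with BenSer (1.04 to 1.255) and 1.11-fold with GPNA (1.00 to 1.22).

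ALDH1L2 (ENSG00000136010, GRCh37 chr12:105413562-105501421, reverse strand), the mitochondrial enzyme that oxidises formyl-folate to carbon dioxide, was the least abundant member. It had 2.41 and 1.86 CPM untreated, 2.56 and 2.08 CPM with GPNA, and 1.31 and 1.63 CPM with BenSer. Only 94 to 119 reads stood behind each group. The BenSer level was 0.686 times that of the control (interval 0.511 to 0.919). The GPNA libraries overlapped the control libraries, and the ratio of 1.09 (0.825 to 1.43) did not differ from 1 beyond counting error. Its log2 difference (CPM + 1) for GPNA was 0.082, and it turned to -0.025 without GPNA replicate 1 and to -0.039 without control replicate 2. Of the 4 mitochondrial members it was the one below the control with BenSer. MTHFD2L, a mitochondrial relative of MTHFD2 that is no member and is named after its values were seen, was also below it, at 12.4 CPM in both control libraries and 8.86 and 8.52 CPM with BenSer, a ratio of 0.702 (0.624 to 0.790).

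**Figure D2:**
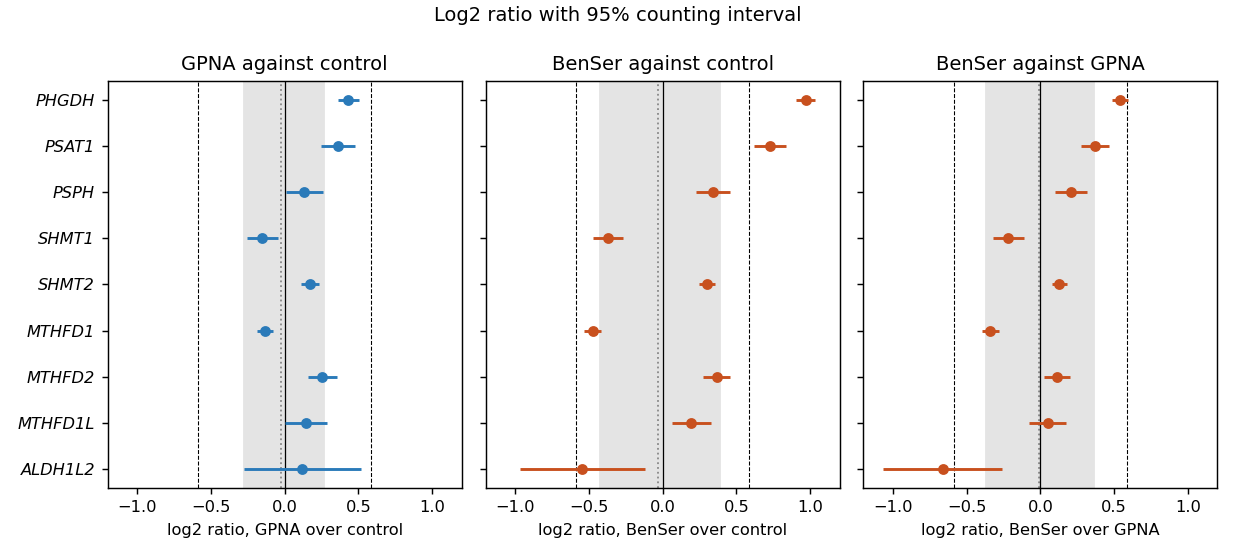
Log2 ratio of CPM (points) with its 95% counting interval (bars) for each enzyme in the 3 comparisons; dashed lines mark 1.5-fold, the dotted line the median of all genes, and the grey band the 5% to 95% range of log2 differences (CPM + 1) of all genes. PHGDH and PSAT1 lie to the right of the band in both comparisons with the control, at 0.97 and 0.73 for BenSer. MTHFD1 lies to its left for BenSer, at -0.47. The point of ALDH1L2 for BenSer, at -0.54, also lies to the left. Its log2 difference (CPM + 1), the measure of the band, was -0.35 and inside the band.

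Across the 9 members, 2 were called higher with BenSer and 0 lower, where 1.96% and 1.58% of the 18976 genes tested were called in those directions. All 9 had both BenSer libraries on one side of both control libraries, 6 above and 3 below, against 28.5% and 37.5% of genes. The same 6 were higher and 3 lower at any size (44.6% and 55.4% of genes), and their counting intervals excluded equality (18.2% and 25.8% of genes). The median log2 difference (CPM + 1) of the members was 0.30, beside -0.028 over all genes, of which the central 90% lay between -0.43 and 0.39. Over all genes the calls were 371 higher and 300 lower (55.3% higher), and 432 and 214 (66.9% higher) when libraries were scaled by TMM, the trimmed mean of M-values, while the members' calls stayed at 2 and 0.

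With GPNA, 0 members were called in either direction, where 0.34% of 18828 genes were called higher and 0.0637% lower. Both GPNA libraries lay above both control libraries for 6 members and below for 2, against 22.4% and 34.4% of genes, and the intervals of the same 8 excluded equality (9.78% above and 20.1% below over all genes). At any size, 7 members were higher and 2 lower (43.3% and 56.7% of genes). The members' median log2 difference (CPM + 1) was 0.14, beside -0.028 over all genes, and 0.21 without control replicate 1. Comparisons with BenSer and with GPNA share the same control libraries. Per gene, 8 members stood on the same side of the control under both compounds and ALDH1L2 on opposite sides. The share of all genes on the same side was not computed, so this count cannot be read as a trait of the members.

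With the 2 libraries of a group taken as if they were separate samples, a test compares libraries and not treatments. At a Benjamini-Hochberg adjusted p under 0.05, edgeR's quasi-likelihood test called 6 members higher and 2 lower with BenSer (18.3% and 17.6% of genes) and 4 higher and 1 lower with GPNA (6.9% and 8.25% of genes). Between BenSer and GPNA it called 5 members higher and 3 lower (17.8% and 15.9% of genes). With the replicate block, edgeR called 6 members higher and 2 lower with BenSer (16.7% and 15.9% of genes), 4 higher and 0 lower with GPNA (5.33% and 6.42% of genes), and 5 and 3 between BenSer and GPNA (17.6% and 15.6% of genes). Each of these edgeR fits called more members higher than lower. Limma called 5 members higher and 2 lower with BenSer (9.68% and 14.0% of genes) and 2 and 1 between BenSer and GPNA (9.57% and 9.59% of genes). With GPNA limma called 0 members in either direction, where it called 0.0106% of genes higher and 0.0% lower. DESeq2 called 5 members higher and 2 lower with BenSer (10.6% and 10.2% of genes), 4 higher with GPNA, where it called 2.36% of genes higher and 2.84% lower, and 3 and 1 between BenSer and GPNA (10.2% and 8.22% of genes).

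BenSer was given at 10 mM and GPNA at 1 mM, so the levels under each are side by side and are no comparison of the compounds at matched dose. PHGDH averaged 75.8 CPM with GPNA and 110.1 CPM with BenSer, a ratio of 1.45 (interval 1.40 to 1.51), and PSAT1 averaged 28.3 and 36.5 CPM. MTHFD1 averaged 101 CPM with GPNA and 80.1 CPM with BenSer, a ratio of 0.790 (0.760 to 0.821). Between these groups 0 members passed 1.5-fold in either direction, where 1.05% of 19056 genes did so higher and 0.813% lower. Both BenSer libraries lay above both GPNA libraries for 6 members and below for 3 (31.7% and 33.6% of genes), and the intervals of 5 lay above equality and of 3 below it (21.2% and 20.7% of genes). ALDH1L2, at 0.632 times its GPNA level (0.477 to 0.834), missed the call because of the CPM added to its low values. MTHFD1L was the member whose interval included equality, with a ratio of 1.03 (0.949 to 1.13).

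**Figure D3:**
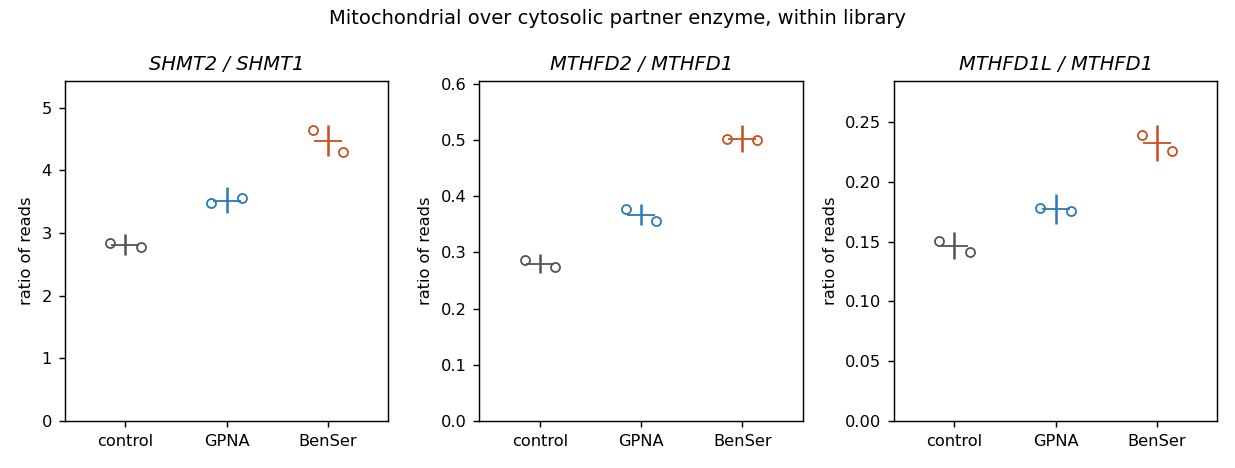
Ratio of reads of a mitochondrial enzyme to its cytosolic partner within each library (vertical axis from 0): circles are the 2 libraries of a group, the horizontal mark is the ratio of their merged reads, and the vertical bar its 95% counting interval. All 3 ratios are lowest in the control and highest with BenSer, from 2.81 to 4.47 for SHMT2 over SHMT1. This order follows from the levels of the single genes.

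The ratios of MTHFD2 and of MTHFD1L to the cytosolic MTHFD1 showed the same order of groups as the SHMT pair. No such ratio was taken for ALDH1L2 or MTHFD2L, mitochondrial enzymes that were below the control with BenSer. MTHFD2 had 0.280 reads per MTHFD1 read in untreated cells (interval 0.264 to 0.297), 0.367 under GPNA (0.348 to 0.387) and 0.502 under BenSer (0.479 to 0.526). For MTHFD1L, which shares with MTHFD1 the formate-ligating activity, the ratio was 0.146 in untreated cells (0.135 to 0.158), 0.177 under GPNA (0.165 to 0.190) and 0.232 under BenSer (0.218 to 0.247). Both ratios were ordered control, GPNA, BenSer without overlapping intervals. This order, like that of the SHMT pair, follows from the single genes, whose mean CPM rose for the mitochondrial and fell for the cytosolic enzymes. It is no separate result, and both ratios share MTHFD1. PHGDH had 0.505 reads per MTHFD1 read in the control and 1.38 with BenSer (1.33 to 1.43), so PHGDH went from fewer reads than MTHFD1 to more.

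Levels of different genes were set side by side as CPM per kilobase of the canonical transcript. In the control, SHMT2 was the most abundant at 41.8 CPM per kilobase, followed by MTHFD1 at 35.3 and PHGDH at 30.1 CPM per kilobase. SHMT1 followed at 12.7 CPM per kilobase, then PSPH at 10.4 and PSAT1 at 9.99 CPM per kilobase, whose intervals overlapped. MTHFD2 at 7.08, MTHFD1L at 4.71 and ALDH1L2 at 0.288 CPM per kilobase closed the order. PHGDH passed MTHFD1 with GPNA, at 40.6 against 32.1 CPM per kilobase. With BenSer it came first, at 59.0 CPM per kilobase against 51.4 for SHMT2. SHMT1 stood behind PSAT1 and PSPH in the order with BenSer, to 9.83 CPM per kilobase, next to MTHFD2 at 9.13 CPM per kilobase, whose interval overlapped.

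Of 41 other genes of serine, folate and methionine metabolism, 37 were listed (ALDH1L1, MAT1A, BHMT and BHMT2 were not). With BenSer, 3 of 36 tested were called higher and 3 lower (1.96% and 1.58% of all genes), the median log2 difference (CPM + 1) was -0.20, and 24 of 36 were lower at any size, beside 55.4% of all genes. With GPNA, 0 of 37 were called in either direction (0.34% of all genes higher and 0.0637% lower), and the median was -0.059 (-0.12 without GPNA replicate 1). Between BenSer and GPNA, 0 of 37 were called higher and 2 lower (1.05% and 0.813% of all genes). The members' median and that of these genes thus had opposite signs in both comparisons with the control.

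The genes of serine and glycine use and of transsulfuration were divided. CBS, which condenses serine with homocysteine in transsulfuration, rose from 5.25 and 5.76 CPM in the control to 11.4 and 11.9 CPM with BenSer, 2.12-fold (interval 1.84 to 2.45), and stood at 7.75 and 7.82 CPM with GPNA. SDSL, a serine dehydratase-like gene, rose from 5.08 and 4.90 CPM to 7.89 and 8.83 CPM with BenSer. DMGDH, a mitochondrial dehydrogenase of dimethylglycine, was called higher on only 5 control and 44 BenSer reads. GCSH, the carrier protein of the glycine cleavage system, fell from 8.05 and 7.11 CPM in the control to 4.72 and 4.35 CPM with BenSer. GLDC, the decarboxylase of the same system, had 4.34 and 4.64 CPM with GPNA and 2.46 and 2.60 CPM with BenSer, and was called lower between these groups. CTH, which follows CBS in the pathway, had 11.7 and 11.5 CPM untreated, 8.84 and 8.60 CPM with GPNA, and 11.1 and 10.7 CPM with BenSer.

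The enzymes that spend folate-bound carbon on nucleotides were lower at any size, 3 of 3 under each compound, beside 55.4% of all genes with BenSer and 56.7% with GPNA. TYMS passed the call with BenSer, GART and ATIC did not, and none of the 3 did with GPNA. TYMS, which makes thymidylate, fell from 14.1 and 14.4 CPM in the control to 7.46 and 7.92 CPM with BenSer, 0.540 times the control level (interval 0.480 to 0.608), and had 12.2 and 10.9 CPM with GPNA. The median log2 difference (CPM + 1) of TYMS, GART and ATIC was -0.56 with BenSer and -0.20 with GPNA.

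SLC19A1, the reduced folate carrier, was the lowest of the better expressed pathway genes with GPNA, at 9.65 and 9.15 CPM against 12.4 and 13.4 CPM in the control. The 7 methionine cycle genes tested had a median log2 difference of -0.27 with BenSer and -0.049 with GPNA. Among them MAT2A, the S-adenosylmethionine synthetase of non-liver cells, averaged 176 CPM untreated, 158 CPM under GPNA and 231 CPM under BenSer, and it is named here after its values were seen. The other folate interconversion genes had medians of -0.22 with BenSer and -0.039 with GPNA, the 5 folate uptake genes -0.21 and -0.20, and the 10 genes of serine and glycine use -0.18 and 0.054. SFXN3, a relative of the mitochondrial serine carrier SFXN1, averaged 22.6 CPM untreated, 25.5 CPM under GPNA and 26.2 CPM under BenSer.

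ATF4 itself had 112 CPM in both control libraries, 141 and 139 CPM with GPNA, and 166 and 164 CPM with BenSer. The groups did not overlap, and ATF4 was 1.245-fold the control level with GPNA (interval 1.20 to 1.29) and 1.47-fold with BenSer (1.42 to 1.52), short of the call. Its log2 difference (CPM + 1) with BenSer was 0.55 as reported, and it passed 1.5-fold at 0.60 with TMM scaling and at 0.60 with DESeq2 size factors. Mean CPM thus rose from control to GPNA to BenSer for ATF4, PHGDH and PSAT1, and it did so also for PSPH, SHMT2, MTHFD2 and MTHFD1L. SHMT1 and MTHFD1 had the reverse order, and ALDH1L2 had neither. The share of all genes with either order was not computed, so the order cannot be called particular to these genes. Whether ATF4 has a part in the levels of the members was not tested.

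**Figure D4:**
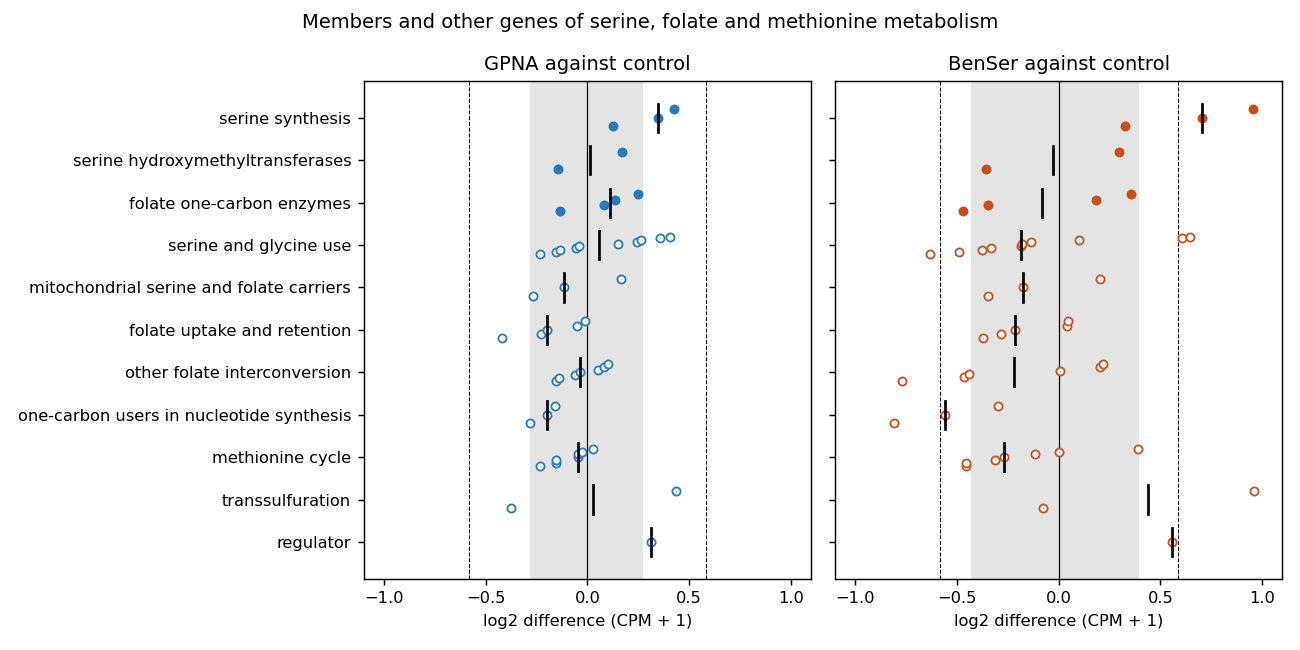
Log2 difference (CPM + 1) against control of the members (filled points) and of other genes of the pathway (open points) by list, with the median of each list as a black bar, 1.5-fold as dashed lines and the 5% to 95% range of all genes in grey. Serine synthesis has a median of 0.70 with BenSer, and the nucleotide list one of -0.56.

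The genes nearest to the members' median pair of log2 differences (0.14 with GPNA and 0.30 with BenSer, over 3 groups) were SH3BGRL2, GCC1, HSDL1, TBRG1 and USP30, out of 7938 others with at least 10 CPM in the control. SH3BGRL2, at 0.14 and 0.30, was the closest, at a distance of 0.0027, and USP30, at 0.13 and 0.30, was the fifth.

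Several members lie beside or across other genes, and whether the counting used strand is not given in the sources used here. SHMT1 overlaps SMCR8 on the opposite strand, SHMT2 overlaps NDUFA4L2, MTHFD1 overlaps ZBTB25, MTHFD2 overlaps SLC4A5, and ALDH1L2 overlaps NOPCHAP1 and WASHC4. PSPH and MTHFD1 have the pseudogenes PSPHP1 and MTHFD1P1, both listed in the tables, SHMT1 has SHMT1P1 and MTHFD2 has 7 named pseudogenes. Reads of these members shared with such genes are uncertain.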

How the data were processed

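RNA of PC-3 cells was sequenced from 6 labelled libraries, 2 each of untreated, GPNA-treated and BenSer-treated cells. Per the labels, total RNA was made into TruSeq Stranded libraries and sequenced paired-end. The submitters' processing notes name TopHat2, Bowtie2, HTSeq 0.6.2p2, DESeq and the builds hg19 and GRCh37.p13.

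The authors deposited 2 tables of 19491 genes whose value columns are named as counts but hold CPM, the reads of a gene scaled to a common library size. All values resolved to whole reads (tolerance 0.01), from which reads and totals were recovered. The control values were identical in both tables. The tables also hold log2 fold changes, average log2 CPM, p-values and false discovery rates of the authors' own comparisons, which were not used. Further columns, 8 entries under 6 distinct names, match no label and were not used here. The study's methods describe more replicates per group than the labels name.

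Columns 1 and 2 of a group, labelled as separate samples, were counted as 1 sample after a chi-square on genes having 20 or more reads. Mean CPM was compared as log2(CPM + 1) for genes whose mean reached 5 reads in one of the groups compared, and called past 1.5-fold. Ratios of CPM have exact Clopper-Pearson intervals at 95% on merged reads. PCR reads without molecular identifiers are not independent molecules, so intervals cover counting error only. Named genes are the 9 members, each other pathway gene past 1.5-fold, the 2 highest and 2 lowest per treatment at 10 CPM or more, ATF4, and the 5 genes nearest to the members' median pair. Some genes of these lists enter the counts and medians but are not reported here by name. The members and gene lists were chosen with earlier results of these data known. Gene positions and transcript lengths are from GENCODE on GRCh37, and promoters from RefSeq on GRCh38.p14.

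Alternatives were other pseudocounts, filters, thresholds and scalings, leaving out each column, and edgeR 4.0.16, limma 3.58.1 and DESeq2 1.42.0 (R 4.3.3) on columns as if separate samples, with Benjamini-Hochberg adjustment, which compare libraries and not treatments. Intervals used scipy 1.17.1 in Python 3.11.15. On simulated reads for BenSer against control (18917 genes, 200 changed), the fold threshold recovered 200, edgeR 200, limma 196 and DESeq2 200, with 0, 3, 0 and 0 false calls. Whether these counts hold for differences of the size seen in the members was not tested. Whether they hold for columns that are counted as 1 sample, as here, was not tested either.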

Additional observations from a re-analysis of the deposited data

How the results depend on the processing

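With each group counted as 1 sample, no replicated test of a treatment was made, and depth limits ALDH1L2 (94 to 119 reads per group), DMGDH (5 control reads) and MTHFS (6 reads each in control and BenSer, under the filter there). The members' called counts were unchanged by TMM or DESeq2 scaling and by leaving out any column. With BenSer against control, 4 members were higher and 3 lower past a ratio of 5 to 4 and 0 higher past 2-fold. Taking columns as samples at an adjusted p under 0.05, edgeR called 6 higher and 2 lower, limma 5 and 2, and DESeq2 5 and 2. With GPNA, 2 were higher past a ratio of 5 to 4, edgeR called 4 higher and 1 lower and DESeq2 4 higher, whereas limma called 0 members. Between BenSer and GPNA, 1 member was lower with a pseudocount of 0.1, 2 were higher and 2 lower past a ratio of 5 to 4, and edgeR called 5 and 3, limma 2 and 1, and DESeq2 3 and 1.

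Of the other pathway genes with BenSer, 1 was higher with a pseudocount of 5, 4 were higher and 13 lower past a ratio of 5 to 4, and 0 passed 2-fold in either direction. For these genes edgeR called 7 higher and 18 lower, limma 5 and 14, and DESeq2 4 and 13. With GPNA, 2 were higher with a pseudocount of 0.1, 3 were higher and 2 lower past a ratio of 5 to 4, and edgeR called 3 and 8 and DESeq2 1 and 4. Between BenSer and GPNA, 4 were lower with a pseudocount of 0.1 and 1 with a pseudocount of 5, 3 were higher and 7 lower past a ratio of 5 to 4, 0 were lower past 2-fold, and edgeR called 5 and 13, limma 5 and 10, and DESeq2 3 and 9. The cause of these differences was not tested.

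Without one column at a time, the members' median log2 difference ran from 0.24 to 0.36 with BenSer, from 0.095 to 0.21 with GPNA and from 0.076 to 0.12 between them. The other pathway genes called with BenSer ran from 2 to 3 higher and from 2 to 4 lower, and between BenSer and GPNA from 2 to 3 lower. Their median ran from -0.22 to -0.18 with BenSer and from -0.12 to -0.044 with GPNA. ALDH1L2 with GPNA reversed to -0.025 without GPNA replicate 1 and to -0.039 without control replicate 2. Of 419 values for single genes, 417 kept their direction and 2 reversed. Other pseudocounts and filters cannot change a direction, so part of this agreement was fixed in advance.

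Columns of the same number deviated together only weakly (Pearson's r 0.043 to 0.066 over 7924 genes). Columns of a group differed little beyond counting error, so these values cannot decide whether same-numbered columns were paired. With the replicate block, edgeR called 6 members higher and 2 lower with BenSer, 4 higher and 0 lower with GPNA, and 5 and 3 between them, and of the other pathway genes 7 and 16, 2 and 6, and 5 and 13. Over all genes the block moved edgeR's calls from 6803 to 6189 with BenSer and from 2853 to 2212 with GPNA. Differences within same-numbered columns, a replicate block without a model, left the members' calls at 2 higher with BenSer and 0 with GPNA.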
